A study of Mus musculus with 14 samples.

Results

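Striatal projection neurons, the GABAergic output cells that make up most of the striatum, acquire and keep their identity through a small set of transcription factors. Described here are 7 of these genes, Foxp1, Foxp2, Bcl11b, Meis2, Isl1, Ebf1 and Six3, in the striatum of R6/2 mice, a model of Huntington disease. They were chosen by name, and every probe set of the mouse expression array whose only gene symbol was one of the 7 names was used. This gave 18 probe sets, 7 for Foxp1, 3 each for Ebf1 and Six3, 2 for Isl1 and 1 each for Foxp2, Bcl11b and Meis2, out of 22626 probe sets and 12393 named genes. All 7 genes were matched by gene ID.

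The R6/2 line is transgenic for the first exon of human HTT with an expanded CAG repeat, driven by the human HTT promoter, and so expresses the mutant fragment widely and not in 1 cell type. Both genotypes, R6/2 and wild-type, were on a CBAxC57BL/6 background and 6 weeks old, and every animal, wild-type included, had been given saline by injection between 30 and 60 minutes before death. The arrays were the control arms of 2 drug studies. Titles that start with M.C marked 4 R6/2 and 4 wild-type arrays, and titles that start with Mith marked 3 and 3, so that 14 arrays were compared, 7 per genotype. The 2 title starts are taken here as 2 cohorts, an inference that the labels do not state directly. Replicates 1 to 4 of each genotype were M.C and replicates 5 to 7 were Mith. Whether every array came from its own animal is not stated, and p-values therefore reflect spread among arrays that may be technical. All values below are log2 signals centred on a common array median, and differences are R6/2 minus wild-type on the log2 scale with cohort as a term, ± SE, unless a cohort is named. A call is an adjusted p under 0.05 over all 22626 probe sets.

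Foxp1 is a forkhead repressor expressed in both the direct-pathway and the indirect-pathway projection neurons, and Bcl11b, also known as Ctip2, is a zinc finger factor needed for these cells to mature and to sort into patch and matrix. Meis2 is a TALE homeodomain factor of the ganglionic eminence that the cells keep in the adult. Isl1, a LIM homeodomain factor, and Ebf1, a helix-loop-helix factor, act in direct-pathway neurons, Isl1 also marks cholinergic interneurons, and Foxp2 is richest in direct-pathway and patch cells. Six3, a homeodomain factor, is needed for indirect-pathway neurons. The enzymes, receptors and peptides by which these neurons respond to dopamine, such as Ppp1r1b (DARPP-32), Pde10a and Penk, are the genes best known to fall in Huntington disease models.

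The tissue label was checked against projection neuron markers. Of 13 measured shared, direct-pathway and indirect-pathway markers, Penk, Tac1, Ppp1r1b, Rasd2 and Rgs9 were the brightest, each above 96.7% of all probe sets or more, and Eya1 was the dimmest, above 23.7%. R6/2 replicate 4 stood apart, since its Spearman correlation with arrays of its cohort averaged 0.981, against 0.986 to 0.992 for the other 13 arrays. RNA integrity was read from the Actb control as its 3′ minus 5′ difference, which is larger where RNA is less intact. This difference was 0.578 ± 0.239 (SD, n = 4) in M.C R6/2 arrays and 0.324 ± 0.0885 (SD, n = 4) in M.C wild-type arrays. In Mith it was 0.649 ± 0.0874 (SD, n = 3) against 0.439 ± 0.196 (SD, n = 3), and wild-type replicate 5, at 0.613, lay within the R6/2 range. The same difference of the Gapdh control ran from 0.102 to 0.57 in M.C R6/2 arrays and from -0.004 to 0.129 in M.C wild-type arrays. In Mith it ran from -0.022 to 0.133 against -0.069 to 0.056. Gapdh was not used as a covariate. Shared projection neuron markers separated the genotypes completely in M.C, where the mean of 5 genes relative to each gene's own mean ran from -0.58 to -0.15 in R6/2 and from 0.49 to 0.74 in wild-type. In Mith the ranges overlapped, -0.54 to -0.22 against -0.30 to 0.32. Since this is bulk tissue, fewer cells of a type and less RNA per cell cannot be told apart.

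Over both cohorts, 2 of the 18 probe sets fell in R6/2 and none rose. Both belong to Foxp1. The background was 2.19% of all probe sets called lower and 0.362% called higher (496 and 82 of 22626). In the M.C arrays alone 5 of the 18 fell, 4 of Foxp1 and the single probe set of Bcl11b, against 2.31% of all probe sets lower and 0.155% higher. No member was called in the Mith arrays by limma, where 0 of 22626 probe sets passed (0%), 2008 had an unadjusted p under 0.05 and the smallest adjusted p was 0.0846. Of the members, 8 of 18 had an unadjusted p under 0.05 over both cohorts, 10 in M.C and 2 in Mith. Such a p was common on these arrays, with 3444 of all 22626 probe sets over both cohorts, 3773 in M.C and the 2008 in Mith. Median differences of the 18 were -0.15 over both cohorts, -0.27 in M.C and -0.03 in Mith, against 0.01, 0.01 and 0.00 for all probe sets.

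**Figure D1:**
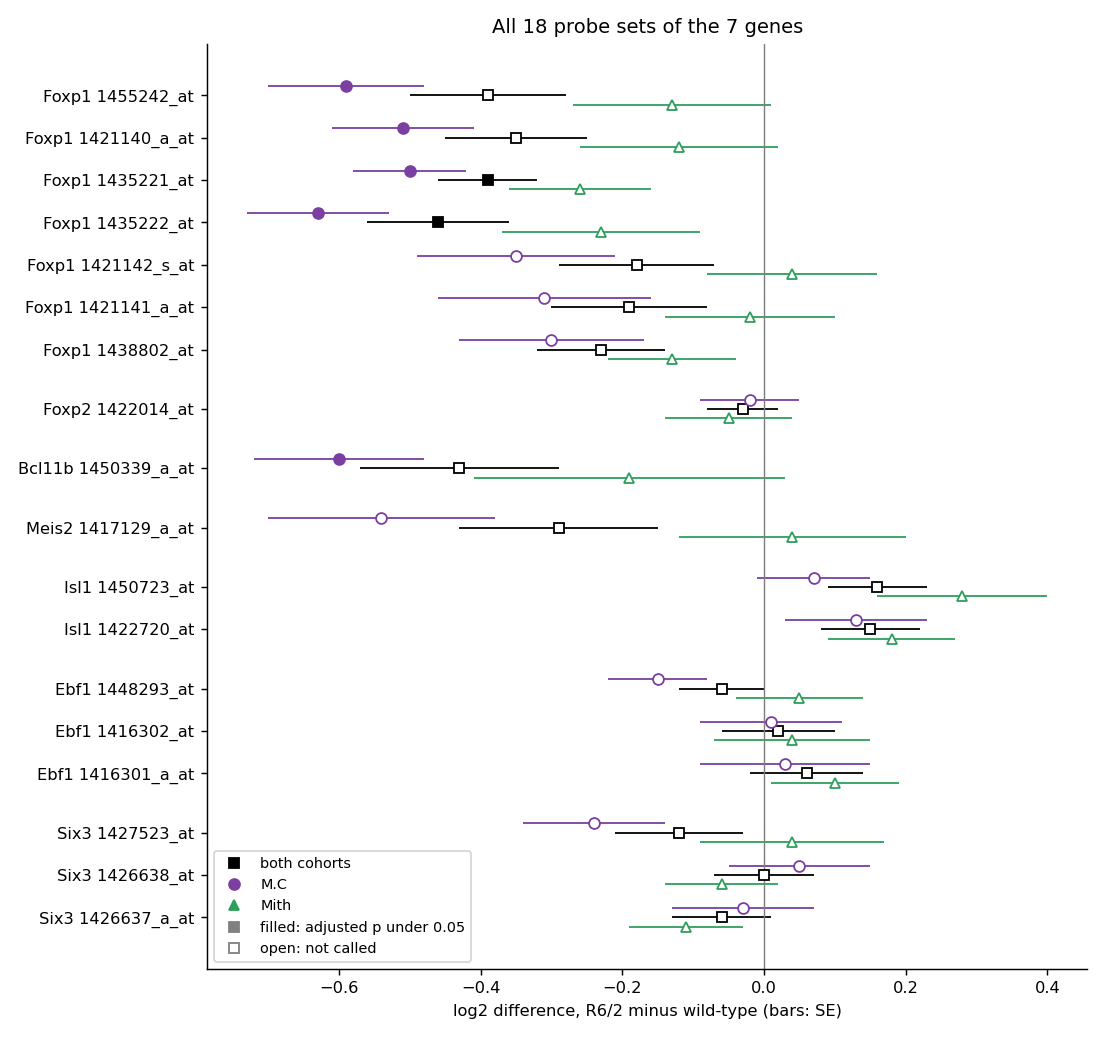
Difference between R6/2 and wild-type (log2, horizontal axis) for each of the 18 probe sets, over both cohorts (squares), in M.C (circles) and in Mith (triangles). Bars are SE and filled symbols passed an adjusted p of 0.05. The filled symbols are 2 Foxp1 probe sets over both cohorts and, in M.C, 4 Foxp1 probe sets and Bcl11b, while no triangle is filled.

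Sequences upstream of the start sites of Foxp1, Bcl11b, Meis2 and Isl1 are shown because the first 3 genes varied together across the arrays and Isl1 did not follow them. They are the last 150 bases before the start site, from RefSeq on GRCm38.p6, and every start site lies on the minus strand. Capitals mark matches, on either strand, to the GC box GGGCGG, the CRE core TGACG or the EGR motif GCGNGGGCG, and a GC box and an EGR match can overlap. The RefSeq start sites used here are 3 for Foxp1, at chr6:99520994-99521143, chr6:99266516-99266665 and chr6:99028299-99028448 in the order of transcription. The stretches of Bcl11b, Meis2 and Isl1 are chr12:108003415-108003564, chr2:116064620-116064769 and chr13:116309689-116309838. The annotated intervals of Foxp1, Bcl11b and Meis2, given below, extend further 5′ than the start sites shown.
Foxp1 outermost of the 3 start sites: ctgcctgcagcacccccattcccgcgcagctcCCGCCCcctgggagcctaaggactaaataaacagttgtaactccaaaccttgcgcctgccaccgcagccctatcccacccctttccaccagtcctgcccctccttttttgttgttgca
Foxp1 middle start site: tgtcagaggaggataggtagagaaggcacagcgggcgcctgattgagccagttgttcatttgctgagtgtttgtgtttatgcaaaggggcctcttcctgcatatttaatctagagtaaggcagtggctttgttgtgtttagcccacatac
Foxp1 innermost start site: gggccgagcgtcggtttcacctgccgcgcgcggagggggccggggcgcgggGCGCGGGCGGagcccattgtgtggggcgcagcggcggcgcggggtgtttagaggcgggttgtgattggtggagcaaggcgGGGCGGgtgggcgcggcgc
Bcl11b: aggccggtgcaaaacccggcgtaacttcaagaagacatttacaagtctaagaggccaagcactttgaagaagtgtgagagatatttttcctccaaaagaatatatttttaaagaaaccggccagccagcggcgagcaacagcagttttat
Meis2: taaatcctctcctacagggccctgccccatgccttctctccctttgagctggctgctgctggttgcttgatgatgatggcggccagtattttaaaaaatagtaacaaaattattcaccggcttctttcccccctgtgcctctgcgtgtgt
Isl1: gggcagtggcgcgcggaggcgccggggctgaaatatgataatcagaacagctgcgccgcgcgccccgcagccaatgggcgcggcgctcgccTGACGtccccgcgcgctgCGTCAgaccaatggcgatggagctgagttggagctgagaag

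Counted over 250 upstream bases, the innermost Foxp1 start site held 3 GC boxes, 1 CRE core and 1 EGR match in a stretch of 74.0% GC. The outermost held 1 GC box at 60.8% GC and the middle one none of the 3 motifs at 45.2% GC. Isl1 held 2 CRE cores, visible above as TGACG and its reverse complement CGTCA, at 71.2% GC. Bcl11b (44.8% GC) and Meis2 (47.6% GC) held no match, and neither did the listed start sites of Ebf1 and Six3. Among 32851 start sites in the same window 32.7% held a GC box, 17.8% a CRE core and 4.7% an EGR match, and the median GC content was 52.4%. The motifs are letters in a window and were not tested as binding sites.

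Foxp1 lies at chr6:98925342-99522746. On its brightest probe set, 1455242_at, the 4 R6/2 arrays of M.C read 9.60, 9.98, 10.03 and 10.19 and the 4 wild-type arrays 10.48, 10.53, 10.58 and 10.58. The groups did not overlap, the wild-type arrays lay close together, and R6/2 replicate 2 was the lowest of its group. In Mith the R6/2 arrays read 9.55, 9.69 and 9.76 and the wild-type arrays 9.46, 9.93 and 10.03, so that the lowest value of the cohort was a wild-type one, replicate 5. Foxp1 fell in M.C, by 0.59 on the log2 scale (SE 0.11, n = 4 per genotype, limma adjusted p = 0.0153), to 66.5% of the wild-type signal. The Mith difference was -0.13 ± 0.14 (n = 3 per genotype, adjusted p = 0.861). Over both cohorts the difference of -0.39 ± 0.11 was just short of the threshold (adjusted p = 0.0574), with a 95% interval of -0.62 to -0.17.

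Another pair of Foxp1 probe sets carried the calls over both cohorts. For 1435221_at the M.C R6/2 arrays read 9.03, 9.07, 9.25 and 9.34 against 9.62, 9.66, 9.69 and 9.70 in wild-type. Its Mith arrays read 9.10, 9.14 and 9.34 against 9.34, 9.45 and 9.57. Here the genotypes were apart in M.C and met at a single value in Mith, where the highest R6/2 and the lowest wild-type array both read 9.34. It fell over both cohorts, -0.39 ± 0.07 (adjusted p = 0.00483), with -0.50 ± 0.08 in M.C (adjusted p = 0.00868) and -0.26 ± 0.10 in Mith (adjusted p = 0.498). It was called with each of the 14 arrays left out in turn, with adjusted p from 0.00178 to 0.0163.

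The second, 1435222_at, read 8.90, 9.12, 9.12 and 9.40 in M.C R6/2 arrays and 9.68, 9.76, 9.80 and 9.82 in wild-type, and 8.87, 8.89 and 9.28 against 9.02, 9.24 and 9.47 in Mith. Again the M.C groups were apart and the Mith groups overlapped. Its difference over both cohorts was -0.46 ± 0.10 (adjusted p = 0.0193), or 72.9% of the wild-type signal, and -0.63 ± 0.10 in M.C (adjusted p = 0.00819). The call over both cohorts was lost without R6/2 replicate 1 (-0.44) or wild-type replicate 4 (-0.43), and adjusted p ran from 0.00429 to 0.0512 over the 14 fits. In M.C it held in all 8 fits.

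The other 4 Foxp1 probe sets did not pass over both cohorts, although all 7 lay below 0. 1421140_a_at was -0.35 ± 0.10 (adjusted p = 0.0712) and fell in M.C, -0.51 ± 0.10 (adjusted p = 0.0185), with no overlap of the groups. 1421141_a_at was -0.19 ± 0.11 and 1421142_s_at was -0.18 ± 0.11 over both cohorts. Both were higher on average in M.C than in Mith in either genotype, with the wild-type ranges apart and the R6/2 ranges overlapping. Their Mith differences were -0.02 ± 0.12 and 0.04 ± 0.12. The dimmest, 1438802_at, brighter than 12.7% of all probe sets, was -0.23 ± 0.09 (adjusted p = 0.193), and in Mith it was the only member whose R6/2 arrays (4.97, 5.11 and 5.16) were lower than every wild-type array (5.16, 5.17 and 5.30) before rounding. The mean of the 7 probe sets was -0.31 ± 0.08 (adjusted p over all gene means = 0.037). The probe sets share the gene and the arrays and are not replicates, and after each cohort's mean was removed, the pairwise Pearson r among the 4 called in M.C was 0.87 to 0.95 over 14 arrays.

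Without wild-type replicate 5, 1455242_at (-0.48) and 1421140_a_at (-0.43) were called over both cohorts as well, and 1455242_at also without R6/2 replicate 6 (-0.44). The count of members called over both cohorts was 5 with wild-type replicate 5 omitted, 3 with R6/2 replicate 6 omitted, and 1 with either R6/2 replicate 1 or wild-type replicate 4 omitted. It was 2 when R6/2 replicate 4, described above as apart from its cohort, was omitted. Of the 5 calls in M.C, 2 were left when R6/2 replicate 1 or wild-type replicate 4 was omitted and 3 when wild-type replicate 1 was, with 1455242_at and 1421140_a_at lost each time, while 6 were made when R6/2 replicate 4 was. Quantile normalization left 1 of the 5, Foxp1 1435222_at.

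Bcl11b lies at chr12:107910403-108004145 and has 1 probe set, 1450339_a_at. Its M.C R6/2 arrays read 8.93, 9.17, 9.22 and 9.39, and its M.C wild-type arrays 9.45, 9.81, 9.84 and 10.02. No R6/2 array reached the lowest wild-type array. In Mith it read 8.97, 9.40 and 9.63 in R6/2 and 8.98, 9.72 and 9.86 in wild-type, with wild-type replicate 5 and R6/2 replicate 7 at nearly the same low value. Bcl11b fell by 0.60 on the log2 scale in M.C (SE 0.12, adjusted p = 0.0283), to 65.8% of the wild-type signal. In Mith the difference was -0.19 ± 0.22 (adjusted p = 0.881). Over both cohorts it was -0.43 ± 0.14 and was not called (adjusted p = 0.132, 95% interval -0.72 to -0.13).

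The Bcl11b call rested on few arrays. In M.C it held in 3 of 8 fits with an array left out, those without R6/2 replicate 3, R6/2 replicate 4 or wild-type replicate 1, with differences from -0.71 to -0.52 and adjusted p from 0.016 to 0.0932. It was lost without R6/2 replicate 1 (-0.60), R6/2 replicate 2 (-0.52), wild-type replicate 2 (-0.58), wild-type replicate 3 (-0.52) or wild-type replicate 4 (-0.59). Over both cohorts it was called in 1 of 14, without wild-type replicate 5 (-0.55), where adjusted p ran from 0.0104 to 0.265.

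Meis2, at chr2:115861264-116067537, also has 1 probe set, 1417129_a_at. The M.C R6/2 arrays read 8.58, 9.17, 9.32 and 9.41 and the wild-type arrays 9.52, 9.56, 9.67 and 9.88. The groups were apart, and R6/2 replicate 2 was well below the other arrays. In Mith the order was not kept, with 9.36, 9.37 and 9.61 in R6/2 against 9.01, 9.59 and 9.63 in wild-type. The M.C difference of -0.54 ± 0.16 did not pass (adjusted p = 0.107), and without R6/2 replicate 4 it was -0.63 and did, with adjusted p from 0.0435 to 0.248 over the 8 fits. Mith gave 0.04 ± 0.16 (adjusted p = 0.979), and both cohorts together -0.29 ± 0.14 (adjusted p = 0.327).

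**Figure D2:**
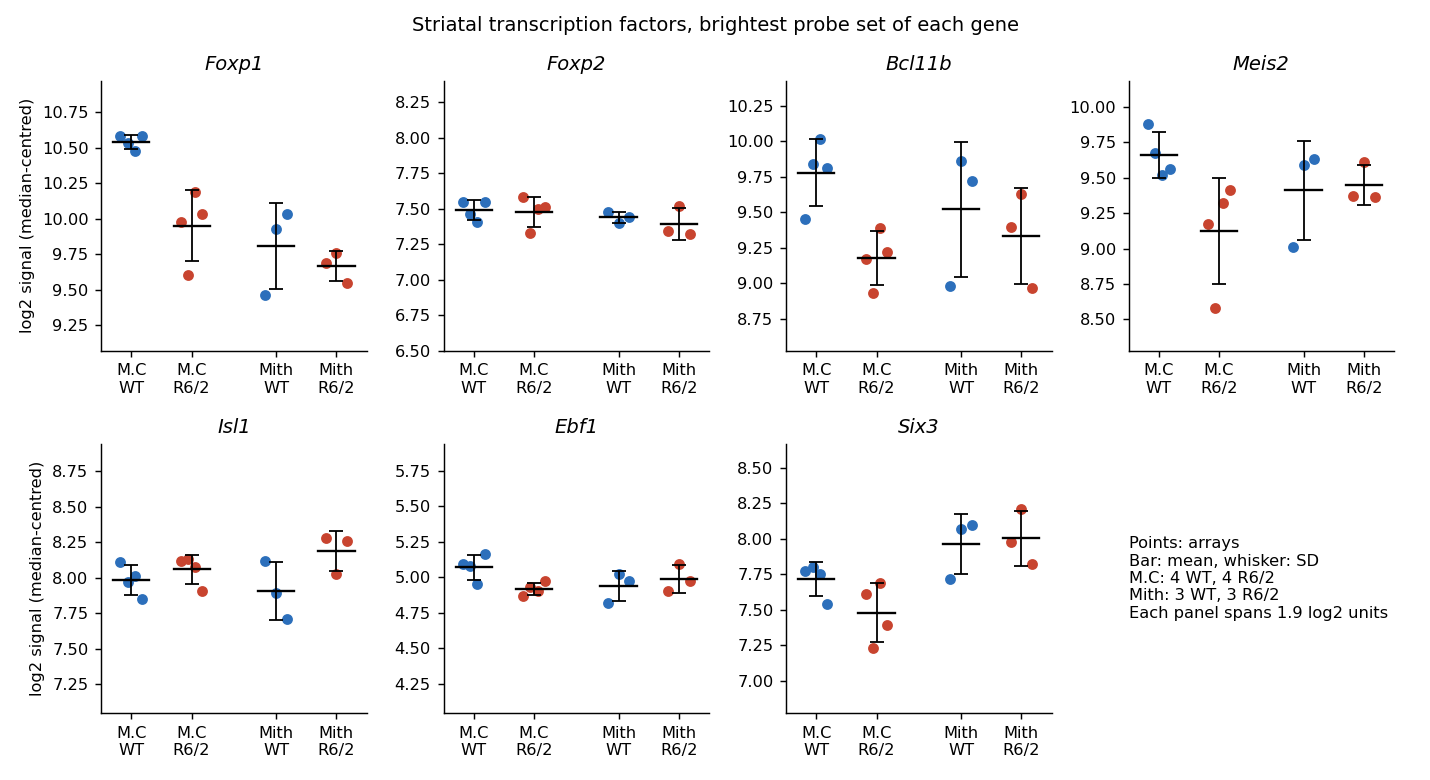
Log2 signal (vertical axis) on each array for the brightest probe set of each gene, by cohort and genotype, with the mean (bar) and SD (whisker). Foxp1, Bcl11b and Meis2 show M.C R6/2 arrays all lower than the M.C wild-type arrays, and overlap in Mith. All panels span the same log2 height, each from its own level.

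Across the whole array, 6.33% of probe sets in M.C and 6.34% in Mith had every R6/2 array lower than every wild-type array. Of the 18 member probe sets 6 did in M.C, 4 of Foxp1 with Bcl11b and Meis2, and 1 did in Mith.

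The level of Foxp1 (1455242_at) was highest in M.C wild-type arrays, 10.54 ± 0.05 (SD, n = 4), followed by M.C R6/2 at 9.95 ± 0.25 (n = 4), Mith wild-type at 9.81 ± 0.30 (n = 3) and Mith R6/2 at 9.67 ± 0.11 (n = 3). Neighbours among the last 3 overlapped in their ranges. Bcl11b followed another order, 9.78 ± 0.24 in M.C wild-type, 9.52 ± 0.47 in Mith wild-type, 9.33 ± 0.33 in Mith R6/2 and 9.18 ± 0.19 in M.C R6/2, with each range overlapping that of its neighbour. For Meis2 the M.C R6/2 arrays were lowest, 9.12 ± 0.37, and the M.C wild-type arrays highest, 9.66 ± 0.16, with both Mith genotypes between them. The ranges of the 4 groups all overlapped for Isl1 1450723_at, Foxp2 and Ebf1 1448293_at, while Six3 (1427523_at) was lower on every M.C R6/2 array than on any Mith R6/2 array. The other Isl1 probe set, 1422720_at, read 7.80 to 7.99 on M.C R6/2 arrays, higher than on any Mith array of either genotype (7.45 to 7.78). Differences between cohorts were not tested.

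Among the factors of direct-pathway neurons none was called. Isl1 lies at chr13:116298270-116309688. On 1450723_at its M.C arrays read 7.91, 8.08, 8.12 and 8.13 in R6/2 and 7.85, 7.97, 8.01 and 8.11 in wild-type. The Mith arrays read 8.03, 8.26 and 8.28 in R6/2 and 7.71, 7.89 and 8.12 in wild-type. R6/2 arrays tended to the upper part of each range, with overlap in both cohorts. The difference was 0.16 ± 0.07 over both cohorts (adjusted p = 0.293, 95% interval 0.01 to 0.32), 0.07 ± 0.08 in M.C and 0.28 ± 0.12 in Mith. The second Isl1 probe set, 1422720_at, gave 0.15 ± 0.07 (adjusted p = 0.331). Isl1 also marks cholinergic interneurons, and of 4 measured genes of those cells 1 fell over both cohorts, the vesicular acetylcholine transporter Slc18a3 at -0.35 ± 0.07 (adjusted p = 0.0118). Slc5a7, Lhx8 and Zic4 were at -0.11 ± 0.06, -0.14 ± 0.13 and -0.07 ± 0.07. Their mean relative level ran from -0.22 to -0.03 in M.C R6/2 arrays and from 0.00 to 0.22 in M.C wild-type arrays, and from -0.07 to 0.00 against -0.04 to 0.18 in Mith.

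Foxp2, at chr6:14901349-15441977, read 7.33 to 7.58 in M.C R6/2 arrays and 7.41 to 7.55 in M.C wild-type arrays, and 7.32, 7.34 and 7.52 against 7.40, 7.44 and 7.48 in Mith. The R6/2 arrays spread on both sides of the wild-type ones. Its single probe set, 1422014_at, had the narrowest interval of the 7 genes, -0.03 ± 0.05 with 95% limits of -0.14 and 0.08 (adjusted p = 0.846). In M.C the sign of the difference turned with the scaling, -0.02 centred and 0.01 as deposited or after quantile normalization.

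Ebf1 lies at chr11:44618100-45008096. Its 3 probe sets were among the dimmest of the array, brighter than 11.5%, 10.6% and 5.68% of all probe sets, and no detection call was used here. On the brightest, 1448293_at, the arrays read 4.87 to 4.97 in M.C R6/2 and 4.95 to 5.16 in M.C wild-type, and 4.90, 4.97 and 5.09 against 4.82, 4.97 and 5.02 in Mith. Differences over both cohorts were -0.06 ± 0.06, 0.02 ± 0.08 and 0.06 ± 0.08, with adjusted p from 0.646 to 0.937.

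Six3, the factor of indirect-pathway neurons, lies at chr17:85613608-85626191. Its brightest probe set, 1427523_at, read 7.23, 7.39, 7.61 and 7.69 in M.C R6/2 arrays and 7.54, 7.75, 7.77 and 7.80 in wild-type. In Mith the values were 7.82, 7.98 and 8.21 against 7.72, 8.07 and 8.10. The 2 lowest of the M.C arrays were R6/2, replicates 2 and 4, and the others overlapped. Its differences were -0.24 ± 0.10 in M.C (adjusted p = 0.28), 0.04 ± 0.13 in Mith and -0.12 ± 0.09 over both cohorts (adjusted p = 0.586, 95% interval -0.31 to 0.07). The other 2 probe sets, brighter than 15.7% and 7.68% of all probe sets, were at 0.00 ± 0.07 and -0.06 ± 0.07.

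Whether the genotype difference itself differed between the cohorts was tested with an interaction term. It was -0.45 ± 0.19 for Foxp1 (1455242_at), -0.57 ± 0.25 for Meis2 and -0.41 ± 0.27 for Bcl11b, M.C minus Mith, with adjusted p of 0.465, 0.482 and 0.619. No member was called by limma, 4 of 18 had an unadjusted p under 0.05 (3 of Foxp1 and Meis2), and 15 of 18 were below 0. Over the whole array 0 of 22626 passed (0%), 2213 had an unadjusted p under 0.05 and the smallest adjusted p was 0.111. The fitted difference of these 3 genes was larger in M.C than in Mith without passing the test.

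The Actb 3′ minus 5′ difference was higher on average in R6/2 in both cohorts, as given above. Foxp1 was lowest in its cohort on the array with the highest Actb difference in M.C, R6/2 replicate 2 (0.852). In Mith the 2 lowest Foxp1 arrays, wild-type replicate 5 (0.613) and R6/2 replicate 7 (0.741), were among the 3 with the highest Actb difference together with R6/2 replicate 6 (0.64). With the Actb difference as a covariate over both cohorts, no member was called, and 56 of 22626 probe sets were (0.248%). The differences were then -0.19 ± 0.11 for Foxp1 (1455242_at), -0.29 ± 0.08 and -0.36 ± 0.12 for 1435221_at and 1435222_at, -0.18 ± 0.16 for Bcl11b and 0.00 ± 0.14 for Meis2. Within M.C the same covariate, a fit added after the data were seen, left 2 of the 5 calls, Foxp1 1435221_at (-0.36 ± 0.08) and 1435222_at (-0.54 ± 0.12), and gave -0.44 ± 0.14 for Bcl11b. Over the whole array, limma gave 5896 of 22626 probe sets an unadjusted p under 0.05 in this M.C fit, against 3773 without the covariate. Of the members 7 of 18 had one, against 10 without it. How many of all probe sets passed an adjusted p of 0.05 in this M.C fit was not counted. Calls in it therefore have no background share beside them. Isl1 (1450723_at) moved from 0.16 to 0.05 ± 0.08 over both cohorts, while its other probe set, 1422720_at, was 0.15 without the covariate and 0.18 ± 0.09 with it.

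**Figure D3:**
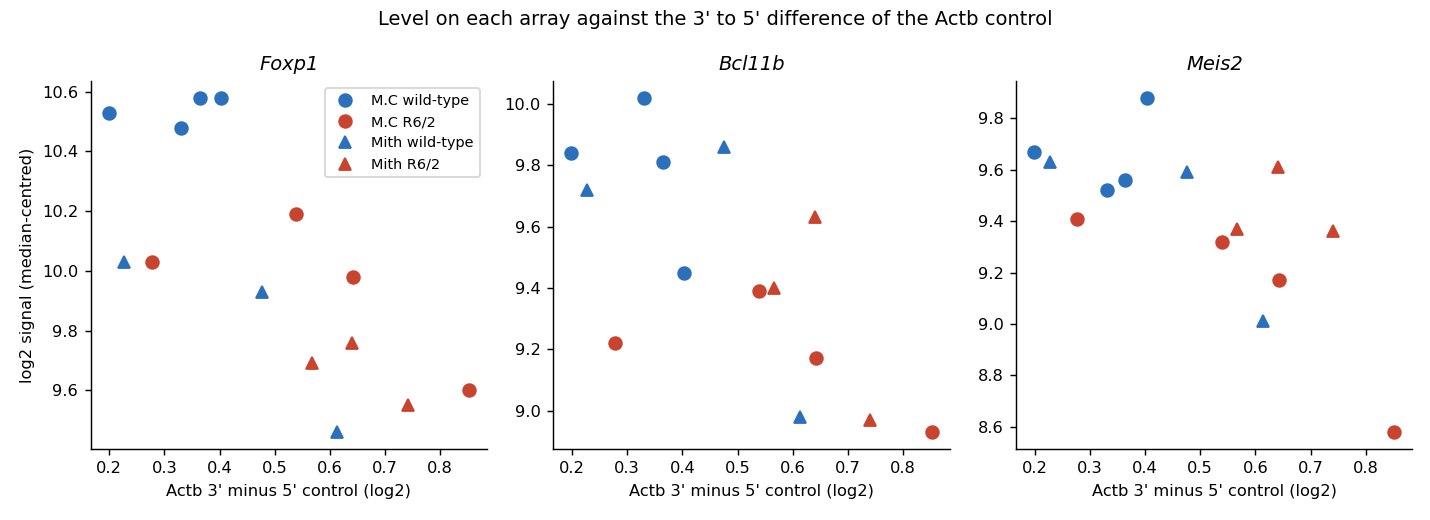
Log2 signal of Foxp1, Bcl11b and Meis2 (vertical axes) against the Actb 3′ minus 5′ difference (log2, horizontal axis) on each of the 14 arrays. Colour gives genotype and shape gives cohort. The array with the highest Actb difference in M.C, R6/2 replicate 2 (0.852), read lowest of the M.C arrays for the 3 genes. In Mith, R6/2 replicate 6 (0.64) read highest of the R6/2 arrays for all 3. In M.C the R6/2 array with the lowest Actb difference (0.277) was replicate 4, the array that stood apart from its cohort. It read lower than every M.C wild-type array for the 3 genes. No trend was tested in these plots.

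The signalling genes of the same neurons differed by more. Of 25 listed, 18 had a named probe set, and 16 of these fell over both cohorts, 17 in M.C and none in Mith, with medians of -0.71, -0.86 and -0.39. The 7 transcription factors, 1 probe set each, had medians of -0.12, -0.24 and 0.04, with 0, 2 and 0 called lower. The lists were not matched for brightness. Foxp1, Bcl11b and Meis2, at -0.39, -0.43 and -0.29 over both cohorts, were brighter than 96.0%, 93.1% and 92.7% of all probe sets. Isl1, Six3, Foxp2 and Ebf1 were brighter than 73.5%, 67.2%, 59.3% and 11.5%. The background for 1 probe set per gene was 2.08% called lower over both cohorts and 2.14% in M.C, and the median of all genes was 0.01 over both cohorts. The signalling list was drawn up with earlier results on these arrays known. Neither the direction nor the size of its differences, nor its count of calls, is therefore independent evidence. With the Actb covariate over both cohorts 4 of the 18 were called (Ryr1, Penk, Arpp19 and Prkcb) and the median was -0.57, where that of the 7 factors was 0.00. In M.C with that covariate 16 of the 18 were called lower, with a median of -0.84. The share of all genes called in that M.C fit was not counted. On the 1 probe set each used here, 0 of the 7 factors were called in that M.C fit, with a median of -0.16.

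Ppp1r1b, which relays dopamine signals to protein phosphatase, read 9.45, 9.60, 9.83 and 10.10 in M.C R6/2 arrays against 10.75, 10.78, 10.88 and 11.04 in wild-type. In Mith it read 9.97, 10.07 and 10.26 against 10.15, 10.52 and 10.78. It fell in M.C, -1.12 ± 0.13, and over both cohorts, -0.80 ± 0.13 (adjusted p = 0.00437), to 57.2% of the wild-type signal. The largest fall was that of the calcium release channel Ryr1, -1.08 ± 0.10 (adjusted p = 5.93e-05). The potassium channel partner Kcnip2 (-0.95 ± 0.18), the phosphodiesterase Pde10a (-0.92 ± 0.17), the enkephalin precursor Penk (-0.89 ± 0.11) and the guanine nucleotide exchange factor Rasgrp2 (-0.85 ± 0.17) also fell, as did Arpp19 (-0.92 ± 0.14) and Arpp21 (-0.84 ± 0.13). So did Rasd2 (-0.74 ± 0.13), Rgs9 (-0.61 ± 0.12), the cannabinoid receptor Cnr1 (-0.57 ± 0.10), the dopamine receptor Drd2 (-0.56 ± 0.11) and the kinase Prkcb (-0.56 ± 0.08). Tac1, the substance P precursor of direct-pathway neurons, was at 0.07 ± 0.10 (adjusted p = 0.787). Pdyn, the dynorphin precursor of the same neurons, was at -0.33 ± 0.09 (adjusted p = 0.0537).

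**Figure D4:**
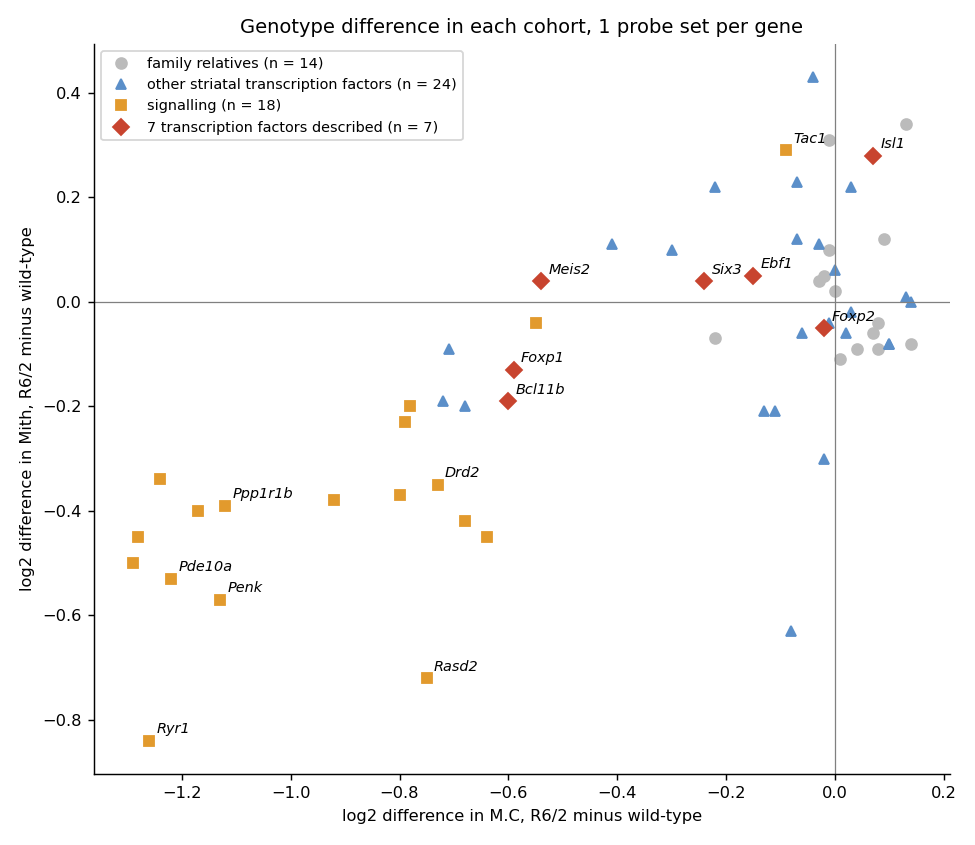
Genotype difference (log2, R6/2 minus wild-type) in M.C (horizontal axis) against Mith (vertical axis), 1 probe set per gene, for the 7 transcription factors and 3 lists. The cohorts share no arrays. Signalling genes reach -1.29 in M.C and -0.84 in Mith, and no plotted probe set of the 7 factors is lower than -0.60 in M.C or -0.19 in Mith. Of the Foxp1 probe sets not plotted, 1435222_at was lower in M.C (-0.63) and in Mith (-0.23), and 1435221_at in Mith (-0.26).

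The log2 ratio of each factor to Ppp1r1b on the same array is given as a description, with no test, because Ppp1r1b was chosen with its fall known and a gene with no difference of its own would shift by the size of that fall (0.80 on the log2 scale). The shift, R6/2 minus wild-type, was 0.38 ± 0.13 for Bcl11b, 0.41 ± 0.08 for Foxp1 and 0.51 ± 0.09 for Meis2. Six3 (0.69 ± 0.10), Ebf1 (0.74 ± 0.13) and Foxp2 (0.77 ± 0.16) lay nearer to 0.80 and Isl1 (0.97 ± 0.18) lay above it. In M.C and Mith the shifts were 0.53 and 0.25 for Foxp1, and 0.52 and 0.20 for Bcl11b.

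Of 28 other transcription factors and cofactors known in striatal development or in adult projection neurons, 24 had a named probe set. Over both cohorts 2 of them fell and none rose, in M.C 3 fell and in Mith none, with medians of -0.02, -0.05 and -0.03. Rarb, a retinoic acid receptor enriched in the striatum, read 8.03, 8.16, 8.19 and 8.46 in M.C R6/2 arrays against 8.79, 8.90, 8.92 and 9.12 in wild-type, and 8.28, 8.28 and 8.40 against 8.36, 8.46 and 8.70 in Mith. It fell over both cohorts, -0.49 ± 0.10 (adjusted p = 0.0118), and in M.C, -0.72 ± 0.10. Id4, an inhibitor of helix-loop-helix factors, was the other, at -0.48 ± 0.12 (adjusted p = 0.0434) and -0.68 ± 0.15 in M.C. Rxrg, a partner of the retinoic acid receptors, fell in M.C, -0.71 ± 0.12 (adjusted p = 0.012), and was at -0.45 ± 0.12 over both cohorts (adjusted p = 0.0588). Zfhx3 (-0.32 ± 0.12), Dlx6 (-0.19 ± 0.11) and Klf9 (-0.16 ± 0.08) were not called. With the Actb covariate none of the 24 was called over both cohorts, and Rarb was at -0.40 ± 0.12. In M.C with that covariate 5 of the 24 were called lower, in a fit where the share of all genes called was not counted.

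Close relatives of the 7 genes showed no called change. Of 17 listed, 14 were measured, and limma called 0 over both cohorts, in M.C and in Mith, with a median over both cohorts of 0.01. Meis1 was at 0.22 ± 0.07 (adjusted p = 0.1), Six6 at -0.15 ± 0.13, Bcl11a at 0.13 ± 0.11 and Six2 at 0.10 ± 0.07.

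Patterns across the 14 arrays were compared after each cohort's mean was removed, as a description, since all points share the genotype difference and the RNA quality of each array. The levels of Foxp1 and Meis2 had a Pearson r of 0.92 (Spearman 0.89), Foxp1 and Bcl11b 0.87 (0.82) and Bcl11b and Meis2 0.73 (0.74). Isl1 ran the other way, at -0.53 (-0.56) with Foxp1 and -0.61 (-0.66) with Bcl11b. Foxp2 had an r of 0.16 to 0.43 with Foxp1, Bcl11b and Meis2. Among 12116 named genes, those most like Foxp1 were Bcr (r = 0.99), Opa1 (0.97) and Kcnip2 (0.96), of which Bcr (-0.50 ± 0.13, adjusted p = 0.0412) and Kcnip2 fell over both cohorts. For Bcl11b they were Tlk2, Tbc1d14 and Dpf1 (each 0.91) and for Meis2 Abcb9 (0.94), Plppr4 (0.92) and Foxp1 itself (0.92). The genes nearest to Isl1 were Micos13 (0.96), Tomm7 (0.92) and Ndufa2 (0.92), all 3 encoding mitochondrial proteins. Foxp2 was nearest to Mcpt1 (0.86), Ebf1 to Sstr2 (0.88) and Six3 to Xkr6 (0.86).

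Markers of neighbouring tissue and of other cells were looked at beside these results. None of 7 cortical glutamatergic genes was called, and their mean relative level lay between -0.18 and 0.14 on all arrays. Of 9 thalamic genes none was called, but in Mith their mean ran from -0.15 to 0.27 in R6/2 and from 0.28 to 0.92 in wild-type, where in M.C it overlapped, -0.48 to -0.05 against -0.35 to -0.18. Of 8 oligodendrocyte genes 5 fell over both cohorts, and their mean ran from -0.62 to -0.35 against -0.35 to 0.15 in M.C. Their Mith range was 0.01 to 0.39 against 0.54 to 0.65. Astrocyte genes, 0 of 8 called over both cohorts and 2 in M.C, ran from -0.33 to -0.12 against 0.04 to 0.17 in M.C and overlapped in Mith, -0.09 to 0.17 against 0.01 to 0.37. None of 10 vessel genes and none of 3 choroid plexus genes was called. The choroid plexus mean varied widely within groups, from -0.93 to 0.32 in R6/2 against -1.17 to 0.42 in wild-type in M.C. In Mith it ran from -0.03 to 0.50 against -0.59 to 0.80. The part of these markers in the values of the transcription factors was not tested.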

How the data were processed

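Total RNA labelled as striatum was measured on an Affymetrix mouse array in 14 samples. The deposited values are log2 probe set signals, a unit read from the values (2.96 to 14.52). Their summarisation and normalization are not stated in the sources. After removal of 64 control probe sets, 22626 remained. Arrays were shifted to 1 common median, since the deposited medians spanned 0.108. Platform symbols were updated through gene IDs. Of the probe sets, 20380 probe sets had 1 symbol, 691 several and 1555 none, and 20351 symbols matched. For a gene in a list the probe set with the highest mean was taken, with _s_at and _x_at sets passed over where it had a plain one.

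The genotype effect was fitted with limma 3.58.1 (R 4.3.3) for every probe set, two-sided, with Benjamini-Hochberg adjustment over 22626. Fits had cohort as a term, used 1 cohort, or held an interaction. The fitting script was tested on simulated data. The precision is limited by the number of arrays. All members were named, and from each list up to 6 called genes with the smallest p and up to 4 more with the largest change, and always Ppp1r1b, Pde10a, Penk, Drd2, Cnr1, Rgs9 and Tac1. Pdyn, Slc18a3, Slc5a7, Lhx8 and Zic4 were named after their values were seen. The 7 members, the lists and the markers were chosen with earlier results of these data known. Alternatives were the deposited scale, quantile normalization, no cohort term, the Actb covariate, trended and robust variances, array weights, brighter probe sets, averaging over probe sets of a gene, and omission of each array in turn.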

Additional observations from a re-analysis of the deposited data

Results flagged for a closer look

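On 28 groups of arrays (the brightest probe set of each of the 7 genes, in groups of 4 or 7 arrays), 2 held an array far from the others, and chance gives about 1 in 20 groups. Both were Meis2. Among the 7 R6/2 arrays replicate 2 read 8.58, with the next at 9.17. Among the 7 wild-type arrays replicate 5 read 9.01, with the next at 9.52. These are also the R6/2 and the wild-type arrays with the highest Actb 3′ minus 5′ difference of their genotype, 0.852 and 0.613. Without R6/2 replicate 2 the Meis2 difference over both cohorts was -0.17, and without wild-type replicate 5 it was -0.40, against -0.29 with all arrays.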

How the results depend on the processing

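The 2 calls among the members over both cohorts became 1 without a cohort term, 0 with the Actb covariate and 4 with array weights, and ranged from 1 to 5 with an array left out. The 5 calls in M.C became 1 after quantile normalization, which ended those of Foxp1 1455242_at (-0.46), 1421140_a_at (-0.41), 1435221_at (-0.40) and Bcl11b (-0.52), and 2 with the Actb covariate, and ranged from 2 to 6 with an array left out. The 16 signalling genes called lower over both cohorts became 4 with the Actb covariate and ranged from 15 to 17 with an array left out. The 17 called lower in M.C became 16 with that covariate. Restricted to brighter probe sets, Foxp1 1455242_at passed over both cohorts at the same -0.39. The cause of these changes was not tested.

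The member probe sets whose sign turned under the settings named next were not called in the comparison in which it turned. Of those listed for Mith, Foxp1 1455242_at, 1421140_a_at and Bcl11b were called in M.C. With the Actb covariate over both cohorts, Foxp1 1421141_a_at was 0.02, Meis2 0.00, Ebf1 1416302_at -0.04, Six3 1427523_at 0.00 and Six3 1426637_a_at 0.05. With it in M.C, Foxp2 was 0.03, Isl1 1450723_at -0.02, Ebf1 1416302_at -0.04 and Six3 1426637_a_at 0.14, and in Mith Foxp1 1455242_at was 0.13, 1421140_a_at 0.08, 1421141_a_at 0.06, Bcl11b 0.19 and Ebf1 1416302_at -0.05. With array weights Ebf1 1416302_at and 1416301_a_at were each -0.01. On the deposited scale Six3 1426638_at was 0.02 over both cohorts and Foxp2 in M.C 0.01, as it was after quantile normalization. With an array left out, the ranges that crossed 0 were, over both cohorts, Ebf1 1416302_at -0.02 to 0.07, Ebf1 1416301_a_at -0.01 to 0.09 and Six3 1426638_at -0.03 to 0.04, in M.C Foxp2 -0.05 to 0.04, Ebf1 1416302_at -0.07 to 0.09, Ebf1 1416301_a_at -0.10 to 0.09, Six3 1426638_at 0.00 to 0.13 and Six3 1426637_a_at -0.12 to 0.04, and in Mith Foxp1 1421142_s_at -0.05 to 0.14, Foxp1 1421141_a_at -0.12 to 0.08, Meis2 -0.16 to 0.15, Ebf1 1448293_at -0.01 to 0.09, Ebf1 1416302_at -0.04 to 0.14 and Six3 1427523_at -0.09 to 0.13. No paired analysis was possible because the replicate numbers follow the order of the record and the labels pair no arrays.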
